A study of Mus musculus with 172 samples.

Results

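The 6 genes of the phospholipase A2 family described here were chosen by family name, with earlier results of these data known: *Pla2g4a*, *Pla2g4b*, *Pla2g4e*, *Pla2g6*, *Pla2g7* and *Pla2g15*. They were looked for in the log2 CPM tables of cerebral cortex and liver, which list 16308 genes between them, 14896 in cortex and 14107 in liver. CPM is the number of reads of a gene scaled to a common library size, and the log2 scale counts doublings. Of the 6 genes, 5 were listed in cortex and 4 in liver. *Pla2g4e* was listed in cortex only, *Pla2g4b* in neither tissue and the remaining 4 in both. The question was how *Pla2g4e* stands against its relatives in level, in its spread among mouse lines and in its change after sleep deprivation (SD).

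Adult male mice were kept awake for 6 h by gentle handling from light onset (SD), or were left undisturbed until the same time (Ctr), after which cortex and liver were taken. Each library held RNA pooled from mice of 1 genotype, tissue and condition, with fewer mice in BXD79, BXD85 and BXD101 than in the others. The genotypes were 33 BXD/RwwJ lines, inbred lines that carry mosaics of the C57BL/6J (B6) and DBA/2J (D2) genomes, each with 1 Ctr and 1 SD pool per tissue, B6 and D2 themselves with 2 pools each per tissue and condition, and their reciprocal F1 crosses BD-F1 and DB-F1 with 1 pool each. These 39 pools per tissue and condition entered the tests of SD against Ctr, and 4 pools of older BXD/TyJ lines (BXD05, BXD29, BXD29t and BXD32) are given beside them. A line is thus replicated by its recombined genome and not by a second pool of the same line, and the mice of the Ctr and SD pools of a line differed. Some lines share a number in their names: BXD48 and BXD48a, BXD65 and BXD65a, BXD73 and BXD73b, and BXD29 and BXD29t. They were counted as separate lines throughout, although such pairs may not be independent.

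Phospholipases A2 cut a fatty acid from the middle position of membrane phospholipids and leave a lysophospholipid behind. Most cytosolic group IV enzymes act downstream of calcium: *Pla2g4a* encodes the enzyme that prefers arachidonic acid and feeds the synthesis of prostaglandins and leukotrienes, whereas *Pla2g4e* encodes an enzyme best known as a calcium-dependent N-acyltransferase, which makes the N-acyl phosphatidylethanolamines from which anandamide and related signalling lipids are released. *Pla2g6* encodes a calcium-independent phospholipase A2 involved in membrane repair, whose loss causes neurodegeneration, *Pla2g7* a secreted enzyme of macrophages that inactivates platelet-activating factor, and *Pla2g15* the lysosomal phospholipase A2.

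Over the 39 pools per tissue and condition, the cortex libraries held 18995492 to 28998853 reads in listed genes under Ctr and 19025159 to 28685060 after SD, and the liver libraries 5034166 to 8269401 and 4681101 to 8009362. Of the BXD/TyJ pools, BXD29t lay above the liver ranges, with 8722196 reads under Ctr and 9022854 after SD. Liver values therefore rest on fewer reads, which limits *Pla2g4a* most: its libraries held 9 to 88 reads in liver and 37 to 119 in cortex. The defining genes of each tissue were listed in it, and some were also listed in the other. All 5 neuronal markers were listed in cortex, with a summed level of 7668 to 8720 CPM under Ctr (median 8278) and 7457 to 8383 CPM after SD (median 7817). Of these, 3 fell, *Syt1* by 0.16, *Rbfox3* by 0.09 and *Slc17a7* by 0.12. *Snap25* and *Gad1* had differences of 0.004 and 0.01 (limma, adjusted p = 0.878 and 0.659). The part of these marker changes in the cortex changes below was not tested. Of the hepatocyte genes *Alb*, *Apoa1*, *Cyp2e1* and *Serpina1a* were not listed in cortex. *Cps1* was, at a Ctr median of -0.72 log2 CPM, and fell by 0.51. In liver all 5 hepatocyte markers were listed. Of the neuronal genes *Snap25*, *Slc17a7* and *Gad1* were not listed in liver, whereas *Syt1* and *Rbfox3* were, at Ctr medians of 6.04 and 0.88. *Syt1* fell by 0.82 in liver after SD (limma, adjusted p = 1.12e-18).

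On the mm9 build used for the files, by the GENCODE annotation of that build and not the RefSeq one the reads were counted on, *Pla2g4e* lies on the minus strand of chromosome 2 (start 119992148, end 120071071), with 6960 bases of exon over 4 annotated transcripts. *Pla2g4b* lies near it on the plus strand of the same chromosome (start 119853219, end 119868769). It was not in the tables and was not analysed here. *Pla2g4a* lies on chromosome 1 (start 151676748, end 151808420), *Pla2g6* on chromosome 15 (start 79116658, end 79158820), *Pla2g7* on chromosome 17 (start 43705047, end 43749150) and *Pla2g15* on chromosome 8 (start 108674299, end 108688613). Of the members, *Pla2g4e* is the one whose span overlaps another annotated gene on its own strand, the predicted gene *Gm13997*, which was not listed in either tissue.

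The reference sequences of the 250 bases upstream of the annotated start are shown for *Pla2g4e*, *Pla2g6* and *Pla2g7*, the members whose levels separated the lines most in the values given below. They come from RefSeq on build GRCm38.p6, which is not the build of the files, in which a promoter was matched for 5 of the 6 members. Capitals mark matches, on either strand, to any of 9 motifs: the cyclic AMP response element or CRE, spelled TGACGTCA, the CRE half-site, spelled TGACG, the AP-1 site, spelled TGANTCA, the E-box, spelled CACGTG, the GC box, spelled GGGCGG, the CCAAT box, the TATA box, spelled TATAAA, the heat shock element core, spelled GAANNTTC, and the nuclear receptor half-site, spelled AGGTCA. The CRE half-site is contained in the CRE.
Pla2g4e, chr2:120245336-120245585, minus strand: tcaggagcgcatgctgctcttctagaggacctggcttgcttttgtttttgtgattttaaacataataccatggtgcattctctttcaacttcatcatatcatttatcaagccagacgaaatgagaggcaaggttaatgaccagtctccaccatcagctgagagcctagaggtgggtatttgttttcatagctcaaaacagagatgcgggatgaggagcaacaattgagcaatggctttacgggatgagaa
Pla2g6, chr15:79328372-79328621, minus strand: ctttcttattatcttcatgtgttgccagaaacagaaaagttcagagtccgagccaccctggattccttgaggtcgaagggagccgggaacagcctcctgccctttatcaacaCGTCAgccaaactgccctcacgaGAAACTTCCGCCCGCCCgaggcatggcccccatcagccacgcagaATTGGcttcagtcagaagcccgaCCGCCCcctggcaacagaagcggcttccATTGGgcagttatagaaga
Pla2g7, chr17:43568201-43568450, plus strand: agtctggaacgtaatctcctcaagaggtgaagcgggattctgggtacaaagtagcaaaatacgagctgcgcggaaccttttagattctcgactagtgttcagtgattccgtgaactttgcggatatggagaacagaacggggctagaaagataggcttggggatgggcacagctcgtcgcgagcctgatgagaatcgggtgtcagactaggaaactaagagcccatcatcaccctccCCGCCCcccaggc
None of the 9 motifs matched in the *Pla2g4e* window. The *Pla2g6* window held 4 of them: the CRE half-site (held by 17.8% of all 32851 promoters of this length), the GC box (32.7%), CCAAT (33.8%) and the heat shock element core (6.7%). The *Pla2g7* window held the GC box alone. The other motifs were present in 1.5% (CRE), 6.7% (AP-1), 6.0% (E-box), 12.4% (TATA box) and 14% (nuclear receptor half-site) of promoters. These matches describe letters of the reference strain only.

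Levels were compared between genes per kilobase of exon, since longer transcripts yield more reads. The length was that of all annotated GENCODE exons of a gene, not of the RefSeq ones counted, and the order depends on it. Without the length, the cortex Ctr medians were 5.23 log2 CPM for *Pla2g4e*, 4.95 for *Pla2g6* and 4.69 for *Pla2g15*. In cortex under Ctr the median level was highest for *Pla2g7* at 5.49 log2 CPM per kb (39 pools), followed by *Pla2g15* at 3.26, *Pla2g6* at 2.63, *Pla2g4e* at 2.43 and *Pla2g4a* at -1.05. The order held in all 39 pools at each step but one: *Pla2g6* and *Pla2g4e* overlapped, and *Pla2g6* was the higher of the 2 in 17 of 39 pools. After SD, *Pla2g6* was higher than *Pla2g4e* in 34 of 39 pools. In liver under Ctr the order was *Pla2g6* at 4.90, *Pla2g15* at 4.42, *Pla2g7* at 2.34 and *Pla2g4a* at -0.27 log2 CPM per kb, and the ranges of *Pla2g6* and *Pla2g15* overlapped, although *Pla2g6* was higher in 38 of 39 pools. The ranges of *Pla2g7* and *Pla2g4a* overlapped too, although *Pla2g7* was higher in 39 of 39. The family thus had a different leading member in each tissue. Within the same pool, *Pla2g7* was higher in cortex than in liver in 39 of 39 pools, with a median liver minus cortex difference of -2.95 on the log2 CPM scale, whereas *Pla2g6* and *Pla2g15* were higher in liver in 39 of 39, by 2.29 and 1.17. *Pla2g4a* was higher in liver in 36 of 39 pools, by a median of 0.63. The tables of the 2 tissues were scaled separately, so these differences of level were not tested. A bulk level cannot tell fewer cells of a type from less RNA per cell.

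**Figure D1:**
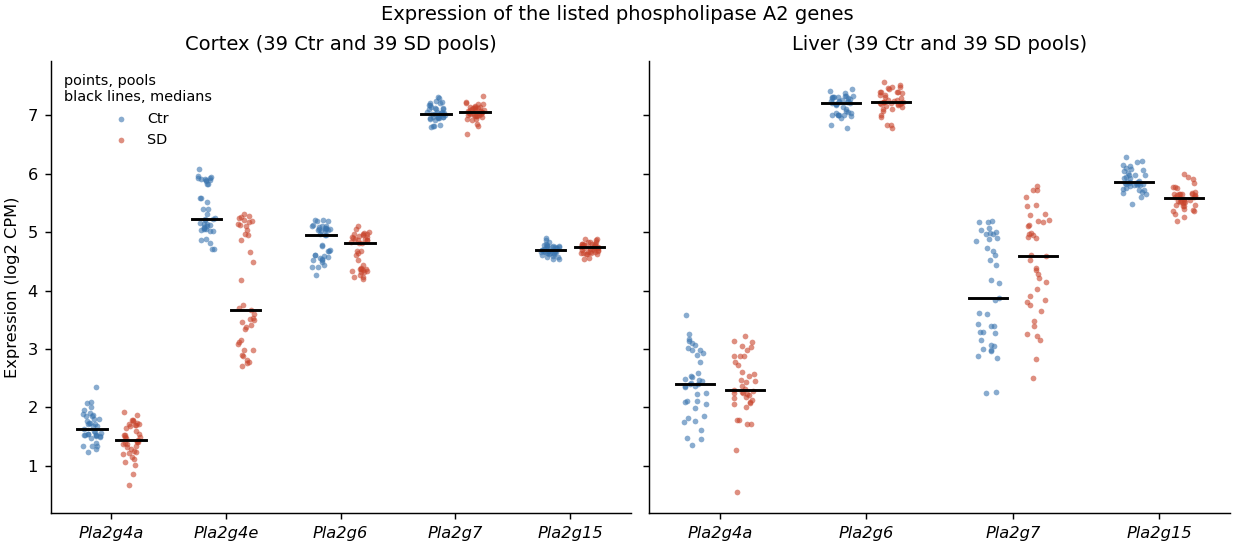
Expression in log2 CPM (vertical axis) of the 5 listed phospholipase A2 genes in the 39 Ctr (blue) and 39 SD (red) pools of cortex and liver, where each point is a pool and each black line a median. *Pla2g4e* in cortex moved from a median of 5.23 to 3.67, the points of *Pla2g6* in cortex leave a gap, and those of *Pla2g7* in liver run from 2.25 to 5.79.

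*Pla2g4e* fell in cortex in every pool. Under Ctr it ranged from 4.71 log2 CPM (BXD89) over a median of 5.23 to 6.08 (a D2 pool), and after SD from 2.70 (BXD85) over 3.67 to 5.32 (a D2 pool). The groups overlapped, but 25 of the 39 SD pools lay below the lowest Ctr pool and 17 Ctr pools lay above the highest SD pool. The mean change was -1.37 on the log2 scale (standard error 0.16, limma, adjusted p = 4.95e-12), or 2.59-fold lower after SD, and it was negative in 39 of 39 pools. It was the 13th most negative mean change of 14896 cortex genes. By adjusted p, 68.4% of all cortex genes passed, 35.4% as lower and 33.0% as higher, so that passing the test was common.

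The relatives moved far less in cortex. *Pla2g4a* fell by 0.22 (standard error 0.06, adjusted p = 0.000584) and *Pla2g6* by 0.17 (0.06, adjusted p = 0.0147), while *Pla2g7* had a difference of 0.01 (0.03, adjusted p = 0.794) and *Pla2g15* one of 0.03 (0.02, adjusted p = 0.116). Of the 5 listed members 3 thus passed, all 3 as lower, beside the 68.4% of all genes. With the line as a block, so that the Ctr and SD pool of a line were compared, the same 3 passed, as did 11359 of 14896 genes. The standard error was then 0.02 for *Pla2g6* (adjusted p = 5.33e-10), 0.05 for *Pla2g4a* (0.000181) and 0.09 for *Pla2g4e* (1.77e-18). Within a pool, *Pla2g4e* fell more than *Pla2g6*, *Pla2g7* or *Pla2g15* in 39 of 39 pools, by a median of 1.37, 1.37 and 1.53 on the log2 scale, and more than *Pla2g4a* in 36 of 39, by 0.98.

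**Figure D2:**
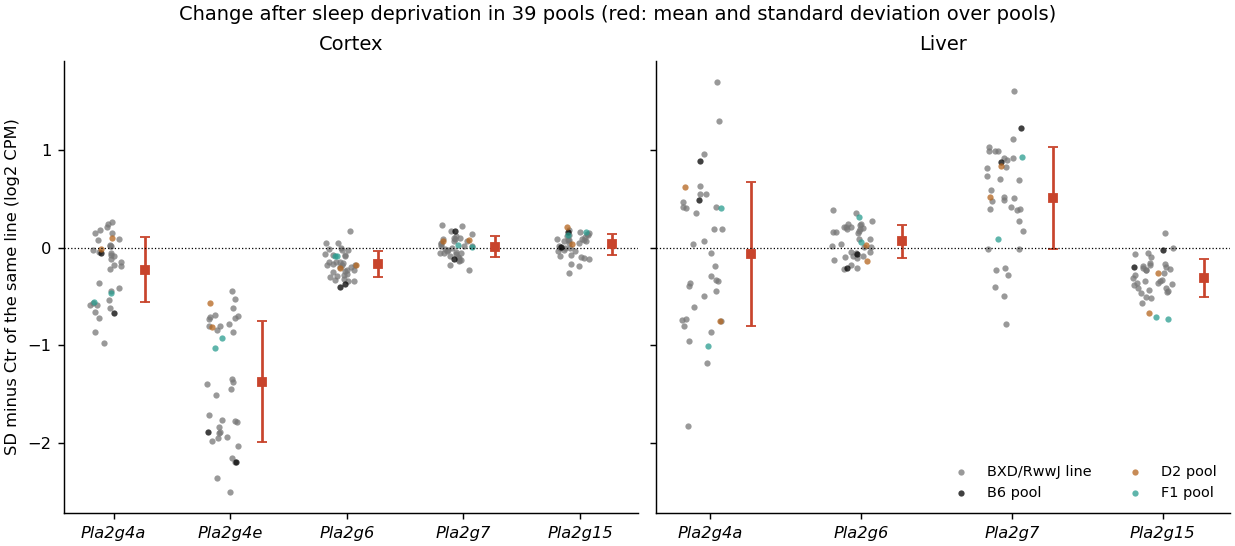
SD minus Ctr level of the same line (vertical axis, log2 CPM) for each listed member in cortex and liver, with BXD/RwwJ lines in grey, B6 pools in black, D2 pools in brown and F1 pools in green, and with the mean and standard deviation over the 39 pools as red squares and bars. *Pla2g4e* in cortex lay below 0 in all 39 pools with no BXD/RwwJ line between -1.35 and -0.86, *Pla2g7* in liver was above 0 in 31 of 39 pools, and *Pla2g15* in liver was below 0 in 38 of 39.

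The size of the fall divided the lines. Among the 33 BXD/RwwJ lines the change ran from -2.51 (BXD85, to 0.176 of its Ctr level) to -0.45 (BXD56, to 0.735 of its Ctr level), and no line had a value between -1.35 and -0.86. Below this gap lay 20 lines and above it 13. The level after SD was divided more clearly still: 21 lines ranged from 2.70 to 4.18 log2 CPM and 12 lines from 4.86 to 5.26. Under Ctr the division was narrower, with 23 lines at 4.71 to 5.58 and 10 lines at 5.83 to 5.97. All 10 lines with the high Ctr level were among the 12 with the high SD level, and these 12 were all among the 13 with the smaller fall. BXD56 and BXD83 joined the upper lines after SD only. BXD89 stood apart: it had the lowest Ctr level of all lines (4.71) and yet fell by only 0.53, to 4.18. The lines above and below the gaps were described after their values were seen and were not compared by a test.

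The spread of *Pla2g4e* among lines was large for a cortex gene. Across the 33 lines its change had a standard deviation of 0.62, against a median of 0.15 over all cortex genes, and ranked 636th of 14896. Its Ctr level had a standard deviation of 0.41 against a median of 0.14. Levels of *Pla2g4e* differed among the 37 strains in the limma F test with condition in the model (F = 6.17, adjusted p = 5.95e-08), a test passed by 55.5% of cortex genes. Because the lines fell into separate clusters, no correlation was computed over all of them. Within the 23 lines with the lower Ctr level the Ctr and SD levels had Pearson's r = 0.44 (permutation p = 0.0349, adjusted over 11 relations 0.0767; Spearman's rho = 0.26, permutation p = 0.239, adjusted 0.42). Within the 10 upper lines r was 0.55 (permutation p = 0.0943, adjusted 0.173; rho = 0.45, permutation p = 0.189, adjusted 0.417). Without the 2 lines farthest from the median Ctr level r was 0.50 and 0.73. The adjusted p did not pass in either cluster. Of the 23 lower lines, BXD56 and BXD83 lay among the upper lines after SD, so that r there spans both SD clusters.

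**Figure D3:**
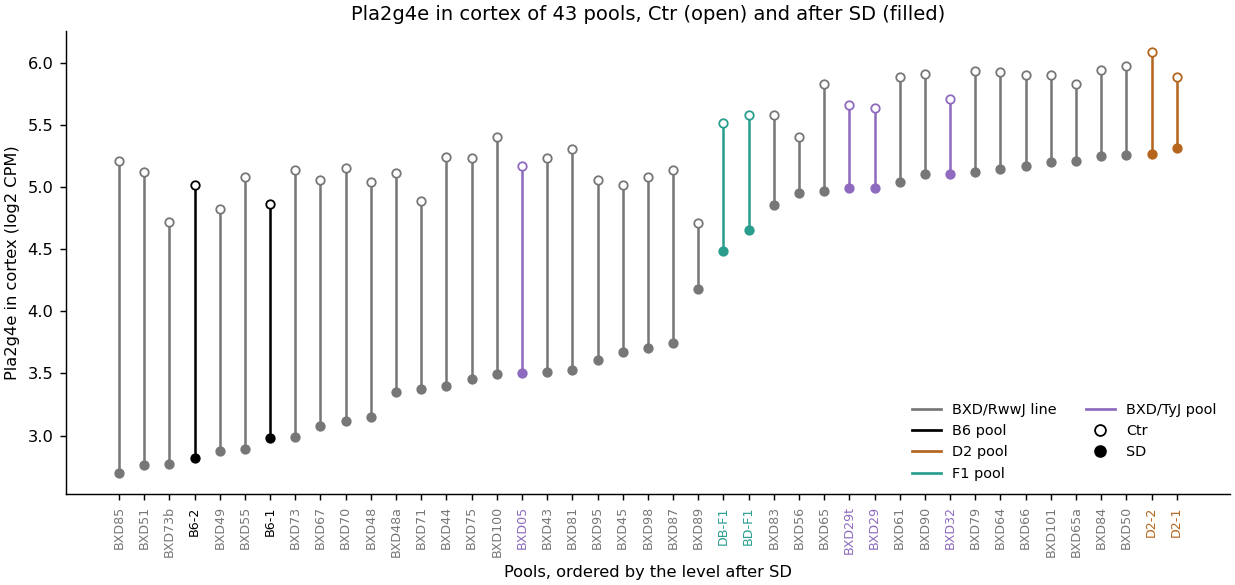
*Pla2g4e* in cortex of 43 pools (log2 CPM, vertical axis), ordered by the level after SD, with open circles for Ctr, filled circles for SD and colours for the genotype. The level steps up between BXD87 and BXD83, with BXD89 at 4.18 and the F1 pools at 4.48 and 4.65 in the step, the B6 pools lie among the lowest and the D2 pools at the top.

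The parental strains lay on opposite sides of the gaps, B6 with the lower lines and D2 with the upper ones, although single lines lay beyond B6 at the low end. Under Ctr the 2 B6 pools stood at 4.87 and 5.01 log2 CPM of *Pla2g4e* and the 2 D2 pools at 5.88 and 6.08, a D2 minus B6 difference of 1.04 (standard error 0.09, limma, adjusted p = 2.8e-06). After SD the B6 pools stood at 2.98 and 2.82 and the D2 pools at 5.32 and 5.27, a difference of 2.39 (0.09, adjusted p = 9.03e-10). The strains did not overlap in either condition, and the pools of a strain differed by at most 0.20. Of all cortex genes, 13% passed this test under Ctr and 14.8% after SD. B6 pools fell by 1.88 and 2.20 and D2 pools by 0.57 and 0.81, so that the SD change was less negative in D2 by 1.35 (0.13, adjusted p = 0.000958). *Pla2g4e* was the one gene of 14896 (0.00671%) for which this strain difference of the SD change passed in cortex. The call rests on few pools: with 1 pool left out the difference was 1.19 to 1.504, and it no longer passed without the second B6 pool (adjusted p = 0.124), the first D2 pool (0.421) or the second D2 pool (0.0989), nor without a variance trend in limma (0.191).

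The F1 crosses fell between the parents. BD-F1 stood at 5.58 and DB-F1 at 5.52 log2 CPM under Ctr, 0.09 above the mean of the parental strains, and at 4.65 and 4.48 after SD, 0.47 above that mean. Their change was -0.92 and -1.03. The 4 BXD/TyJ pools, which were not in the test, fell on either side of the gap seen among the newer lines: BXD05 went from 5.17 to 3.50, whereas BXD29 went from 5.63 to 4.99, BXD29t from 5.66 to 4.99 and BXD32 from 5.71 to 5.11. With 1 pool per genotype these values have no replicate check.

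Genes around *Pla2g4e* on chromosome 2 did not share the size of its change. Of the 12 genes of this interval from *Mapkbp1* to *Capn3*, 7 were listed in cortex. Beside *Pla2g4e*, *Mapkbp1* rose by 0.17 (adjusted p = 3.41e-05) and *Tmem87a* by 0.17 (adjusted p = 5.71e-07), each in 39 of 39 pools, and *Vps39* fell by 0.09 (adjusted p = 1.04e-08) and *Ganc* by 0.18 (adjusted p = 7.91e-08), each in 37 of 39. *Ehd4*, the gene next to *Pla2g4e*, had a difference of -0.04 (adjusted p = 0.303) and *Capn3* one of 0.002 (adjusted p = 0.974), of which the sign turned with median-centred libraries. *Ganc* and *Capn3* overlap on the same strand in the annotation and are less certain, whereas *Tmem87a* overlaps *Ganc* on the opposite strand only. The group IV genes *Pla2g4d* and *Pla2g4f*, which lie beside *Pla2g4e*, were not listed. Between the parental strains under Ctr, *Mapkbp1* was higher in D2 by 0.43 (adjusted p = 0.000158) and *Tmem87a* by 0.29 (adjusted p = 0.00749), while *Ehd4* had a difference of -0.07 (adjusted p = 0.741) and *Vps39* one of 0.06 (adjusted p = 0.627).

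*Pla2g4a*, the arachidonic acid-releasing relative, was the least abundant of the listed members in both tissues. In cortex it ranged from 1.23 over 1.63 to 2.35 log2 CPM under Ctr and from 0.67 over 1.45 to 1.92 after SD, and it was lower after SD in 27 of 39 pools. The groups overlapped widely. In liver it ranged from 1.36 over 2.40 to 3.58 under Ctr and from 0.54 over 2.30 to 3.23 after SD, a difference of -0.06 (standard error 0.12, adjusted p = 0.709), with 19 pools higher and 20 lower. Its levels did not pass the F test among strains in cortex (F = 1.57, adjusted p = 0.109) or in liver (F = 1.28, adjusted p = 0.25). Nor did a line's Ctr level carry over to its SD level beyond permutation error, with r = 0.14 in cortex (permutation p = 0.441, adjusted 0.6; rho = 0.11, permutation p = 0.534, adjusted 0.587) and 0.12 in liver (permutation p = 0.491, adjusted 0.6; rho = 0.14, permutation p = 0.427, adjusted 0.587). Without the 2 farthest lines r was 0.16 and 0.13. At this depth *Pla2g4a* gave no detectable line pattern.

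*Pla2g6*, the calcium-independent enzyme, divided the lines in cortex as well. Under Ctr 14 BXD/RwwJ lines lay between 4.27 and 4.68 log2 CPM and 19 between 4.95 and 5.21, with none in between. After SD 15 lines lay at 4.23 to 4.64 and 18 at 4.81 to 5.11. Over the 39 pools the median was 4.95 under Ctr and 4.81 after SD, and *Pla2g6* was lower after SD in 36 of 39 pools. The change itself was small and not divided: over the 33 lines it had a standard deviation of 0.13, below the 0.15 of the median cortex gene. Strains differed in cortex (F = 19.34, adjusted p = 4.91e-17), the largest F of the members listed there and rank 416 of 14896 genes. The order by F is not one of spread, since the residual of this test holds line differences of the SD change. Strain means had a standard deviation of 0.28 for *Pla2g6* (residual 0.09) and 0.65 for *Pla2g4e* (residual 0.43).

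The parental difference of *Pla2g6* had the same direction as that of *Pla2g4e*. B6 pools stood at 4.70 and 4.60 log2 CPM under Ctr and D2 pools at 5.19 and 5.07, a difference of 0.48 (standard error 0.08, adjusted p = 0.00115). After SD the difference was 0.67 (0.08, adjusted p = 5.78e-05). BD-F1 and DB-F1 stood at 4.77 and 4.76 under Ctr. The strain difference of the SD change, 0.19 (0.12, adjusted p = 0.99), did not pass. Within the clusters of lines the Ctr and SD levels were not related beyond permutation error: r was 0.11 in the 14 lower lines (permutation p = 0.707, adjusted 0.707; rho = 0.18, permutation p = 0.533, adjusted 0.587) and 0.12 in the 19 upper lines (permutation p = 0.633, adjusted 0.696; rho = -0.07, permutation p = 0.775, adjusted 0.775). Without the 2 farthest lines r was -0.21 and 0.11.

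In liver *Pla2g6* was abundant and even. It ranged from 6.78 over 7.22 to 7.46 log2 CPM under Ctr and from 6.79 over 7.24 to 7.58 after SD, with overlapping groups and a difference of 0.06 (standard error 0.04, adjusted p = 0.177). With the line as a block, so that the Ctr and SD pool of a line were compared, the same difference passed (adjusted p = 0.0339), as it did under voom with the block (0.0332). *Pla2g6* was higher after SD in 25 of 39 pools. Strains differed in liver too (F = 3.73, adjusted p = 0.000102), a test passed by 62.1% of liver genes. The liver levels of the 33 lines repeated between Ctr and SD with r = 0.55 (permutation p = 0.00083, adjusted 0.00304; rho = 0.50, permutation p = 0.00331, adjusted 0.0121) and r = 0.49 without the 2 farthest lines. D2 minus B6 was 0.23 under Ctr (0.07, adjusted p = 0.062) and 0.31 after SD (0.07, adjusted p = 0.00634), tests that 10.4% and 29.6% of liver genes passed. The SD call was lost without the first B6 pool (adjusted p = 0.114), without the second D2 pool (0.0871) and without a variance trend (0.0533).

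**Figure D4:**
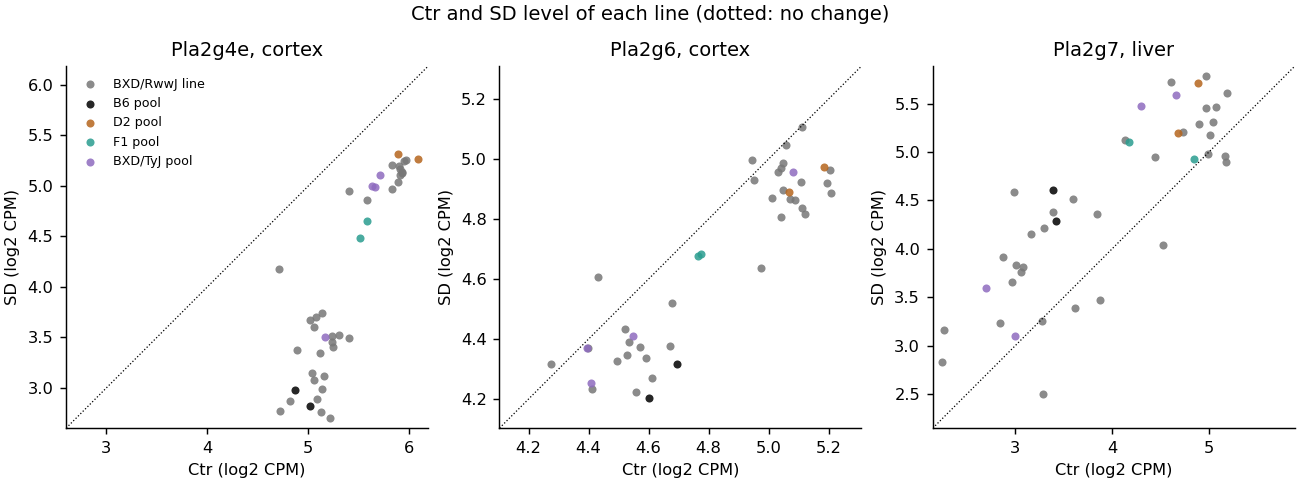
SD level (vertical axis, log2 CPM) against Ctr level (horizontal axis, log2 CPM) of each of the 43 pools for *Pla2g4e* in cortex, *Pla2g6* in cortex and *Pla2g7* in liver, with the dotted line marking no change. For *Pla2g4e* the lower lines lie far below the dotted line and the upper lines nearer to it, for *Pla2g6* the clusters keep near the line, and for *Pla2g7* most pools lie above it.

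*Pla2g7*, the platelet-activating factor acetylhydrolase, had the Ctr level that varied most among lines of the members listed in liver, whereas its SD change varied less there than that of *Pla2g4a* (standard deviation 0.54 against 0.73). In liver it ranged from 2.25 (BXD61) over 3.88 to 5.19 log2 CPM (BXD87) under Ctr and from 2.50 (BXD101) over 4.59 to 5.79 (BXD65a) after SD, resting on 28 to 424 reads. The standard deviation of its Ctr level over the 33 lines was 0.95, against 0.20 for the median liver gene. The groups overlapped, with 10 SD pools above the highest Ctr pool. *Pla2g7* rose by 0.51 in liver (standard error 0.20, adjusted p = 0.0291) and was higher in 31 of 39 pools. It was 1 of 2 members that passed there without a block, beside 44.2% of all liver genes. The call did not pass over the 33 BXD/RwwJ lines alone (0.47, adjusted p = 0.0879), in a fit without the pairing. With the line as a block the 39 pools gave adjusted p = 4.59e-07, and *Pla2g7* was higher in 25 of the 33 lines.

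Line differences of *Pla2g7* in liver repeated from Ctr to SD. Over the 33 lines r was 0.83 (permutation p = 1e-05, the smallest that 100000 resamples can give, adjusted 0.00011; rho = 0.80, permutation p = 1e-05, adjusted 0.00011), and 0.80 without the 2 farthest lines. Strains differed (F = 12.79, adjusted p = 4.99e-13, rank 377 of 14107 genes). B6 pools stood at 3.39 and 3.42 log2 CPM under Ctr and D2 pools at 4.68 and 4.88, a difference of 1.38 (standard error 0.19, adjusted p = 0.000723). After SD the B6 pools stood at 4.61 and 4.29 and the D2 pools at 5.20 and 5.72, a difference of 1.01 (0.19, adjusted p = 0.00247). The latter call was lost without the second B6 pool (adjusted p = 0.0713) or the second D2 pool (0.0575). BD-F1 stood at 4.84 and DB-F1 at 4.18 under Ctr. The strain difference of the SD change, -0.37 (0.26, adjusted p = 0.438), did not pass, where 7.19% of liver genes did, and it ranged from -0.55 without the second B6 pool to -0.20 without the first.

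In cortex *Pla2g7* stayed within 6.80 to 7.32 log2 CPM under Ctr and 6.68 to 7.33 after SD, with 22 pools higher and 17 lower. Strains nevertheless differed (F = 4.67, adjusted p = 3.74e-06), and the line levels repeated between Ctr and SD (r = 0.64, permutation p = 8e-05, adjusted 0.00044; rho = 0.52, permutation p = 0.00238, adjusted 0.0121; r = 0.61 without the 2 farthest lines). A line's cortex level was not related to its liver level beyond permutation error (r = 0.33, permutation p = 0.0593, adjusted over 5 relations 0.296; rho = 0.37, permutation p = 0.0328, adjusted 0.164; r = 0.33 without the 2 farthest lines), nor were those of the other members listed in both tissues. Since macrophages are a known source of this enzyme, markers of resident macrophages were set beside it. Of 5 Kupffer cell markers 4 were listed in liver, and their log2 differences after SD lay between -0.13 (*Cd5l*, adjusted p = 0.104) and 0.09 (*Clec4f*, adjusted p = 0.224). Their summed level was 187.5 to 403.5 CPM under Ctr and 192.8 to 529.3 CPM after SD. In cortex, of the 5 microglial markers *Tmem119* and *C1qa* rose by 0.19 each, *P2ry12* fell by 0.33 and *Cx3cr1* by 0.14, and *Csf1r* had a difference of 0.01. Of the 5 astrocyte markers in cortex *Slc1a3* rose by 0.05 and *Aldh1l1* by 0.12. *Aqp4*, *Gfap* and *Gja1* had differences of -0.02, 0.13 and 0.04 that did not pass. Which cells hold the *Pla2g7* RNA of either tissue was not tested. Other cell type markers moved in liver: all 4 B cell markers fell (by 1.11 to 1.82, with the median summed level at 12.3 CPM under Ctr and 5.17 CPM after SD), of the 3 sinusoidal endothelial markers *Lyve1* rose by 0.84 and *Clec4g* by 0.17, and of the 5 markers of the microglial list *Tmem119* rose by 0.82. The part of cell composition in the liver values of *Pla2g7* and *Pla2g15* was not tested.

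*Pla2g15*, the lysosomal enzyme, fell in liver. It ranged from 5.48 (a B6 pool) over 5.85 to 6.28 log2 CPM (DB-F1) under Ctr and from 5.19 (BD-F1) over 5.59 to 6.00 (BXD65a) after SD. The groups overlapped, with 11 SD pools below the lowest Ctr pool. *Pla2g15* fell by 0.31 (standard error 0.04, adjusted p = 5.35e-10), in 38 of 39 pools, and BXD83 was the exception with a change of 0.14. Strains differed in liver (F = 2.32, adjusted p = 0.00835) but did not pass the test in cortex (F = 1.27, adjusted p = 0.267), which does not show that the tissues differ in this respect. The line levels repeated between Ctr and SD in liver with r = 0.53 (permutation p = 0.00159, adjusted 0.00437; rho = 0.48, permutation p = 0.0058, adjusted 0.0159), and r was 0.15 in cortex (permutation p = 0.399, adjusted 0.6; rho = 0.20, permutation p = 0.267, adjusted 0.42). Without the 2 farthest lines r was 0.45 and 0.22. In cortex it was the steadiest member, between 4.53 and 4.90 under Ctr and 4.53 and 4.88 after SD. D2 was higher than B6 in liver under Ctr by 0.43 (0.14, adjusted p = 0.0725), a difference that passed with the replicate number of the parental pools as a block (adjusted p = 0.0316). Without the first B6 pool it was 0.26 (adjusted p = 0.474) and without the second 0.61 (0.111).

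For the 4 members listed in both tissues the SD change was compared between tissues within each of the 39 pools (limma on liver change minus cortex change, 12695 genes, 57.6% of which passed). The change of *Pla2g7* was higher in liver than in cortex by 0.50 (standard error 0.08, adjusted p = 1.79e-06) and that of *Pla2g6* by 0.23 (0.03, adjusted p = 4.78e-08). *Pla2g15* differed the other way, with a liver minus cortex difference of -0.34 (0.04, adjusted p = 9.17e-11). *Pla2g4a* had a difference of 0.16 (0.12, adjusted p = 0.255). Members that passed the test of SD against Ctr without a block were *Pla2g4e*, *Pla2g4a* and *Pla2g6* in cortex and *Pla2g7* and *Pla2g15* in liver. With the line as a block *Pla2g6* passed in liver too (difference 0.06, limma, adjusted p = 0.0339).

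Other phospholipases A2 and related lipid hydrolases moved in both directions. In cortex 17 of 29 were listed, of which 7 rose and 5 fell (70.6% passed, 68.4% of all genes), with a median log2 fold change of -0.01, as over all genes. *Pla2g4c*, a calcium-independent group IV enzyme, rose by 0.64 (standard error 0.12, adjusted p = 9.25e-07) and the secreted *Pla2g3* by 0.41 (0.06, adjusted p = 1.5e-08). *Pnpla1*, which acts in skin ceramide synthesis, fell by 0.76 (0.09, adjusted p = 2.53e-12) from a low median of -0.59 log2 CPM, and *Plbd2* by 0.24 (0.02, adjusted p = 7.61e-19). In liver 16 were listed, of which 7 rose and 4 fell (68.8%, against 44.2% of all genes). *Pnpla3*, a lipid droplet protein induced by feeding, and its relative *Pnpla5* fell most, by 1.55 (0.31, adjusted p = 1.43e-05) and 1.52 (0.35, adjusted p = 0.000205), while *Pnpla2*, the adipose triglyceride lipase, rose by 0.19 and *Pnpla6*, the neuropathy target esterase, by 0.17. *Pnpla5* was low, with medians of 0.40 log2 CPM under Ctr and -1.13 after SD. It reached the level of no reads in both conditions, so the size of its fall is uncertain.

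The eicosanoid genes, which act on the arachidonic acid that *Pla2g4a* releases, were divided. In cortex 27 of 30 were listed, 8 rose and 10 fell (66.7% passed), with a median of -0.08. *Ptgs2*, cyclooxygenase-2 and an activity-induced gene in neurons, rose by 1.25 (standard error 0.16, adjusted p = 3.23e-11) in 38 of 39 pools, and the lipoxygenase *Alox12b* by 0.56 (0.09, adjusted p = 2.85e-08) in 39 of 39. The lipoxygenases *Alox12* and *Aloxe3* fell by 1.28 (0.15, adjusted p = 2.75e-12) and 0.76 (0.06, adjusted p = 4.57e-19). In liver 23 were listed, 2 rose and 8 fell (43.5%, against 44.2% of all genes, 21.5% as higher and 22.6% as lower). *Hpgds*, a prostaglandin D synthase, fell by 0.90 and the thromboxane receptor *Tbxa2r* by 0.76, while *Ptges3* rose by 0.26 and *Ptgr2* by 0.05. The *Ptgr2* call was lost with median-centred libraries.

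The list for reacylation of lysophospholipids also holds acyl-CoA synthetases and other acyltransferases, which do not themselves act on lysophospholipids. Its genes were all listed in cortex, 21 of 21, where 10 rose and 7 fell (81.0%, against 68.4% of all genes). The acyl-CoA synthetase *Acsl3* rose by 0.23 in cortex, in 39 of 39 pools, and fell by 0.73 in liver, in 39 of 39 pools. *Agpat5* rose by 0.22 in cortex, and *Mboat1* and *Lpcat4* fell by 0.35 and 0.27. In liver 20 were listed, of which 8 rose and 4 fell (60.0%, against 44.2% of all genes), with *Agpat4* at 0.25 (limma, adjusted p = 0.0495), *Lpgat1* at 0.21 and *Acsl4* at -0.19. The *Agpat4* call was lost under voom (adjusted p = 0.0969) and over the 33 lines (0.201). Genes of N-acylethanolamine and endocannabinoid metabolism, the pathway in which *Pla2g4e* acts, showed smaller changes than *Pla2g4e* itself. In cortex 15 of 19 were listed, 4 rose and 5 fell (60.0%). *Abhd6*, which degrades the endocannabinoid monoacylglycerol, rose by 0.32 (0.02, adjusted p = 1.98e-31) and *Ppara*, a receptor for N-acylethanolamines, by 0.22, while *Daglb*, which makes that monoacylglycerol, fell by 0.37 (0.02, adjusted p = 1.24e-28) and *Hrasls* by 0.26. In liver 14 were listed, 1 rose (*Gde1*, by 0.24) and 2 fell (*Abhd12* and *Daglb*, by 0.10 each), or 21.4% against 44.2% of all genes.

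Of the genes for hydrolysis of lysophospholipids and their receptors 10 of 13 were listed in cortex, 2 rose and 6 fell (80.0%, median -0.12). The lysophosphatidic acid receptor *Lpar2* rose by 0.54 and the lysophospholipase *Lypla2* by 0.30, and *Lpar6* and *Gpcpd1* fell by 0.38 and 0.33. In liver none of 10 rose in the limma test or under voom, also at an unadjusted p below 0.05 (0 genes in each case), and 5 fell. This was 50.0%, where 44.2% of all liver genes passed, 21.5% as higher and 22.6% as lower. Lowest were *Lpar4* at -0.47 (limma, adjusted p = 0.036) and *Lpar1* at -0.36 (adjusted p = 0.022). *Lpar4* reached the level of no reads in both conditions. Over the 33 BXD/RwwJ lines neither passed (adjusted p = 0.124 and 0.0678), and 3 genes of the list did. Every list held genes of both directions in cortex. In the fit without a block no listed gene of the 5 lists fell as far as *Pla2g4e* there, with *Alox12* the nearest. This order is not firm. Under voom with the line as a block *Pla2g4e* fell by 1.21, and the study itself reported a larger fall for *Alox12* than for *Pla2g4e*.

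**Figure D5:**
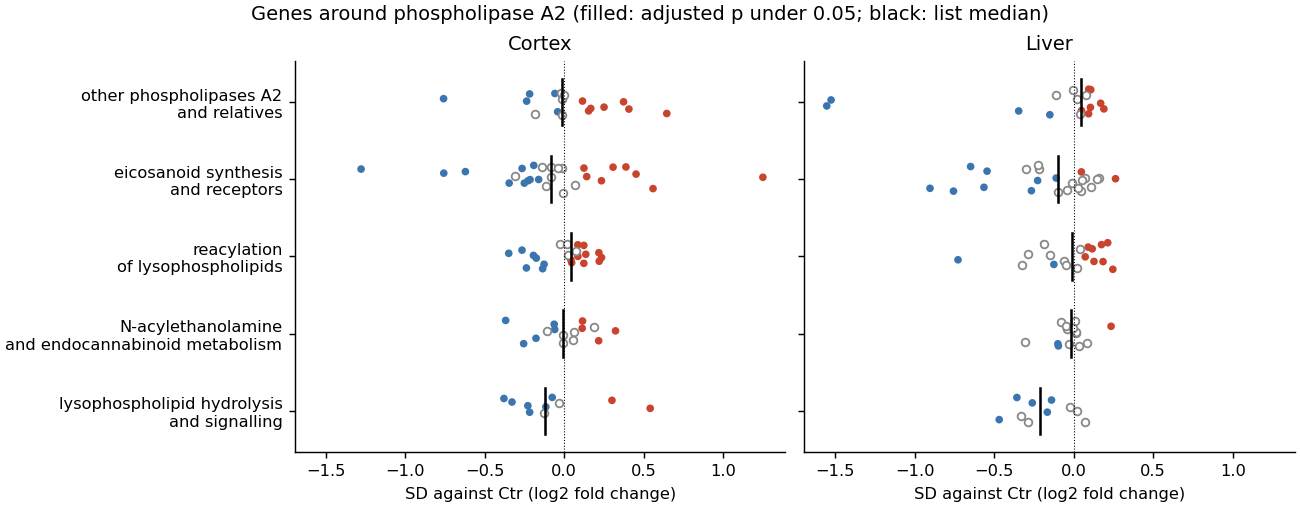
Log2 fold change of SD against Ctr (horizontal axis) of the genes of the 5 lipid lists in cortex and liver, with filled points for genes at an adjusted p below 0.05 (red higher, blue lower), open points for the others and a black bar at the list median. In cortex each list has filled points on both sides of 0, with *Ptgs2* at 1.25 and *Alox12* at -1.28 the farthest out, and in liver *Pnpla3* and *Pnpla5* lie near -1.5.

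The genes whose line pattern was most like that of a member were named by the largest Pearson correlation across the 33 BXD/RwwJ lines, as a description, since the points share libraries and inherited chromosome segments. For the Ctr level of *Pla2g4e* in cortex the 5 nearest genes all lay on chromosome 2: *Tmem87b* (r = 0.85, 8.57 Mb away), *Duox1* (0.83, 2.07 Mb), *Bloc1s6* (0.81, 2.49 Mb), *Bambi-ps1* (0.80, 2.22 Mb) and *Adal* (0.80, 0.90 Mb). For its SD change the 5 nearest were *Axin2* (r = 0.69), *Ankrd16* (0.67), *Fbxo41* (0.66), *Nlgn2* (0.65) and *3830408C21Rik* (0.62), of which only *Ankrd16* lies on chromosome 2, 108 Mb away. The nearest gene of *Pla2g6* in liver was *Tmem184b* (r = 0.68, 0.03 Mb away on chromosome 15). That of *Pla2g7* was *Tnfrsf21* in liver (r = 0.73, 0.48 Mb away on chromosome 17) and *Aldoc*, on chromosome 11, in cortex (0.78). For *Pla2g4a* it was *Rffl* in cortex (0.65) and *Sgol2* in liver (0.77), and for *Pla2g15* *Svop* in cortex (0.72) and *Pls1* in liver (0.59), where *Sgol2* lies on the chromosome of its member but 93.6 Mb away and the others on different chromosomes.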

How the data were processed

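RNA of cortex and liver was measured in 172 libraries, 43 pools in each tissue and condition. Per the labels and the study's methods, the authors aligned TruSeq stranded mRNA reads to mm9 with STAR, counted them per RefSeq gene with htseq-count in stranded, union mode, and deposited log2 CPM values after TMM scaling in edgeR, with lowly expressed genes left out. The 4 deposited tables hold no counts. Whole reads were recovered from the steps between values, with 100% of values within 0.02 of a whole number, and served for depth and for the voom alternatives. No 2 libraries were identical, and 0 columns were left unmapped.

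SD and Ctr pools of each tissue were compared across all listed genes with limma 3.58.1 (R 4.3.3), with a variance trend and Benjamini-Hochberg adjusted p below 0.05, without a block. D2 was compared with B6 in 8 parental libraries per tissue, strains by limma's F test, and tissues on the changes of 39 pools. The standard errors are limma's. Correlations were tested by permutation (100000 resamples, two-sided) in scipy 1.17.1, within clusters where the widest gap with at least 6 lines on each side spanned at least 15% of the range, a rule chosen after the values were seen. The lines pair the pools: the deviations of a line's Ctr and SD pool correlated with 0.299 to 0.712 in cortex (median 0.614) and 0.169 to 0.648 in liver (median 0.476), against a median of -0.02 between different lines in each tissue. Scripts were tested on simulated data. The members, the 5 lipid lists and the chromosome 2 list were chosen with earlier results of these data known. The text names all members, the top 2 risers and top 2 fallers by log2 fold change among the passing genes of each list and tissue, every chromosome 2 neighbour listed in cortex, and the nearest genes by correlation (5 for *Pla2g4e*, 1 for each other member in a tissue, of which that of *Pla2g6* in cortex is not reported here). Alternatives changed the scaling, pseudocount, filter, variance model, block and pools.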

Additional observations from a re-analysis of the deposited data

Results flagged for a closer look

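In 27 groups of 4 pools or changes the distance of an end value from its neighbour was set against the whole range (Dixon's test), and 5 exceeded the 95% critical value, which chance alone exceeds in about 5% of groups. Of these, 3 concerned *Pla2g4e* in cortex of the BXD/TyJ pools and the same line, BXD05, with ratios of 0.855 for Ctr, 0.93 for SD and 0.938 for the change, the last at -1.66 against -0.67 to -0.60 in the other pools. BXD05 also stood apart for *Pla2g6* in liver under Ctr (ratio 0.915), and BXD29 for *Pla2g15* in cortex after SD (ratio 0.857, 4.89 log2 CPM against 4.65 for the lowest).

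Differences between groups in the SD change passed limma's test for 4 members. D2 minus B6 was 1.35 for *Pla2g4e* in cortex. Liver minus cortex was -0.34 for *Pla2g15*, 0.23 for *Pla2g6* and 0.50 for *Pla2g7*.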

How the results depend on the processing

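With the line as replicate block, *Pla2g6* in liver passed (0.0646, and 0.064 under voom with the replicate block). With the replicate number of the parental pools as replicate block, *Pla2g15* passed in liver under Ctr (0.43), and the parental difference of the change in cortex was called for 2 genes; no other call of a member changed. *Pla2g7* in liver was 0.47 and not called over the 33 lines. Quantile normalization turned the uncalled *Pla2g7* in cortex to -0.0265 and *Pla2g4a* in liver to 0.0068. *Capn3* in cortex turned to -0.001 under voom with the replicate block, to -0.0021 with median-centred libraries and to -0.0017 over all 43 pools. In liver the *Lpar4* call was lost under voom with the replicate block, with quantile normalization and with log2(CPM + 1) values. It was also lost over all 43 pools, over the 33 lines and without BXD79, BXD85 and BXD101. *Lpar1* was lost with quantile normalization and over the 33 lines, *Agpat4* under voom and over the 33 lines. *Ptgr2* was lost with median-centred libraries.

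The parental comparisons rest on 2 pools per group and moved most. Without a variance trend the genes called were 1228 in cortex and 843 in liver under Ctr and 1416 in cortex after SD, and 0 for the change in either tissue (733 and 2894 at an unadjusted p below 0.05); *Pla2g4e* was then 1.35 for the change and *Pla2g6* in liver 0.31 after SD, both uncalled. Median-centred libraries gave 1612 genes for the change in liver, 1404 of them higher, against 767 of 1014. With median-centred libraries 3022 of 4451 genes called in liver after SD were higher in D2, against 2251 of 4175.

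Leaving out 1 parental pool in turn gave 868 to 1345 genes under Ctr and 1029 to 1854 after SD in cortex, 483 to 581 and 1551 to 2848 in liver, 0 to 1 for the change in cortex and 0 in liver (1928 to 2995 at an unadjusted p below 0.05). Under Ctr, *Pla2g15* in cortex ranged from -0.0442 to 0.0965, *Pla2g15* in liver from 0.26 to 0.61 and *Pla2g4a* in liver from -0.65 to 0.87. After SD, *Pla2g7* in cortex ranged from 0.0043 to 0.269, called at the latter, and in liver from 0.75 to 1.27, *Pla2g6* in liver from 0.23 to 0.40 and *Pla2g15* in liver from -0.0758 to 0.239. For the change in cortex, *Pla2g15* ranged from -0.0439 to 0.129, *Pla2g7* from -0.0953 to 0.193 and *Pla2g4e* from 1.19 to 1.504. For the change in liver, *Pla2g7* ranged from -0.55 to -0.20. Without the 2 farthest lines the correlation of *Pla2g6* between Ctr and SD in the lower lines was -0.21, and between cortex and liver in the upper lines 0.0077. The other 428 values that answer a comparison kept their direction and side of the threshold, or moved by less than the limits set. The cause of these moves was not tested. Liver depth limits *Pla2g4a* and the lowest list genes.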
